A study of Mus musculus with 59 samples.

Results

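Naive pluripotency, the ground state of mouse embryonic stem cells (ESCs), is held by a circuit of transcription factors around Oct4 and Sox2. Described here by symbol are 10 genes of this state, not all of them transcription factors: *Nanog*, *Esrrb*, *Nr5a2*, *Nr0b1*, *Tfcp2l1*, *Zfp42*, *Prdm14*, *Spic*, *Tcl1* and *Fbxo15*. They are 10 of 24391 genes listed in the deposited tables. They were taken by name for their known role, with earlier results of these data known. In ESCs the circuit is kept on by LIF signalling through STAT3 and by inhibitors of the MEK and GSK3 kinases. When these are withdrawn the naive genes are shut off within days while Oct4 stays on, and genes of the next, formative, stage such as *Fgf5* and *Dnmt3b* are switched on. Polycomb repressive complex 1 (PRC1), whose RING1A and RING1B subunits ubiquitinate histone H2A and whose PCGF subunits define its variants, is known as a repressor of developmental genes. The comparison asks how far the 10 genes fell from ESCs to embryoid bodies (EBs), and how complete that fall was in each PRC1 mutant.

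The series holds 59 RNA-seq libraries of 6 conditional mouse ESC lines, each carrying a tamoxifen-inducible Cre (ERT2-Cre) in every group, controls included. Every line has 4 groups, ESCs and EBs without and with 4-OHT, the drug that activates the Cre. By the study's text, *Pcgf1* to *Pcgf5* were deleted 2 days before EB formation. Loss of RING1B in the *Ring1A/B* line and of *Pcgf6* was induced together with EB formation, so the timing differs between lines. No control received 4-OHT, so the drug and the deletion cannot be told apart. The *Pcgf1* line is *Pcgf1* fl/fl without 4-OHT (control) and *Pcgf1* delta/delta with it (*Pcgf1*-KO), with 4 control ESC, 5 *Pcgf1*-KO ESC, 5 control EB and 5 *Pcgf1*-KO EB libraries. The point mutant line has 2 libraries per group and carries *Ring1A* pm/pm in all of them, so that its controls already lack RING1A catalysis, while 4-OHT turns *Ring1B* into its catalytic point mutant. The *Ring1A/B* line is *Ring1A*-null in all groups, with *Ring1B* fl/fl or delta/delta. The *Pcgf2/4*, *Pcgf3/5* and *Pcgf6* lines are floxed at the genes they are named for, and these 4 lines also have 2 libraries per group. ESCs were grown on mouse embryonic fibroblast feeders (MEFs) with LIF and the inhibitors SU5402, PD184352 and CHIR99021 of FGF receptors, MEK and GSK3. EBs were aggregates of the same cells, in suspension for 2 days without these factors. Replicates are numbered in the labels, which do not name separate derivations of a line, so the p-values measure the spread between cultures of 1 line at most.

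Values are TPM, a measure of transcript abundance scaled per gene length and to a fixed sum in each library. Each value is thus a share of its library, and levels were compared as such shares. Read counts were not used here, so the depth behind a value is unknown. A library had 6039 to 9139 genes at 0. In the *Pcgf1* line, the targeted *Pcgf1* transcript ranged from 10.7 to 13.6 TPM in control and from 0.627 to 2.77 in *Pcgf1*-KO ESCs, and from 7.3 to 16.6 in control and 0.978 to 2.47 in *Pcgf1*-KO EBs. A point mutation does not show in TPM, so the point mutant line has no such check. In the remaining 4 lines, 21 of 32 files carry a condition in their name other than that of the sample label, and for 14 of these the stage is another. No targeted gene there was reduced in libraries labelled KO to the extent that *Pcgf1* was, although reads on exons outside a deletion can remain. *Rnf2*, which encodes RING1B, was at 77.2 to 78.2 TPM in labelled control and 62.9 to 63.2 in labelled KO ESCs of its line, and *Pcgf6* at 67.1 to 91.5 and 78.8 to 104.6 TPM. Groups follow the labels throughout, and these 4 lines come last.

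On mm9, the build of the deposited values, 9 of the 10, all protein-coding, lie at chr6:122657507-122664651 (*Nanog*, plus strand), chr12:87702067-87862578 (*Esrrb*, plus), chr1:138740161-138857004 (*Nr5a2*, minus), chrX:83437103-83441286 (*Nr0b1*, plus), chr1:120524522-120581744 (*Tfcp2l1*, plus), chr8:44380422-44392363 (*Zfp42*, minus), chr1:13103538-13117244 (*Prdm14*, minus), chr10:88137517-88147760 (*Spic*, minus) and chr12:106454967-106460947 (*Tcl1*, minus). The 250 bases before the annotated start were taken from RefSeq (GRCm38.p6) for 8 of the 10 genes (not for *Prdm14* or *Fbxo15*). 5 are shown, 5′ to 3′ on the gene's own strand, because these genes mark the extremes of the results below: *Nanog* with the highest ESC level, *Zfp42* with the pattern nearest to the mean of all 10, *Tfcp2l1* and *Spic* with deep falls, and *Nr0b1* with no measured fall in *Pcgf1*-KO. Capitals mark motif matches. The *Nanog* window lies at chr6:122707239-122707488 (plus strand), *Zfp42* at chr8:43307010-43307259 (minus), *Tfcp2l1* at chr1:118627695-118627944 (plus), *Spic* at chr10:88683024-88683273 (minus) and *Nr0b1* at chrX:86191525-86191774 (plus).
Nanog: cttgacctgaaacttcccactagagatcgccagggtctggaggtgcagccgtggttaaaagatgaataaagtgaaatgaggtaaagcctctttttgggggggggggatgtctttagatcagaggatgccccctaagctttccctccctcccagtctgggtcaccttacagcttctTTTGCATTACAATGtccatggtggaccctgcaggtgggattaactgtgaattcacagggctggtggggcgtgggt
Zfp42: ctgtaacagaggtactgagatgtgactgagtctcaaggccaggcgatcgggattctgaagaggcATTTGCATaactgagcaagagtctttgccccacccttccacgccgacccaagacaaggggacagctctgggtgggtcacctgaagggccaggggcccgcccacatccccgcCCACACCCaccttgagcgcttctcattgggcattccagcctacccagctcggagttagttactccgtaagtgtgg
Tfcp2l1: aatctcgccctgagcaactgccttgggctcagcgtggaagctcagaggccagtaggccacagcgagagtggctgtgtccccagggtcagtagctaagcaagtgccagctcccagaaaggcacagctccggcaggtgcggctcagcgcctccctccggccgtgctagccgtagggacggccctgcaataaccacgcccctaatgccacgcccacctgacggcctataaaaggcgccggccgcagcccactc
Spic: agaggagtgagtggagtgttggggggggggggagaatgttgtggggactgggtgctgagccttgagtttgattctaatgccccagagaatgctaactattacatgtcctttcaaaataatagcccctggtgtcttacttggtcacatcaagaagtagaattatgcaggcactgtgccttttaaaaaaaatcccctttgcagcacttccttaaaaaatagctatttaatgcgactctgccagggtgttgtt
Nr0b1: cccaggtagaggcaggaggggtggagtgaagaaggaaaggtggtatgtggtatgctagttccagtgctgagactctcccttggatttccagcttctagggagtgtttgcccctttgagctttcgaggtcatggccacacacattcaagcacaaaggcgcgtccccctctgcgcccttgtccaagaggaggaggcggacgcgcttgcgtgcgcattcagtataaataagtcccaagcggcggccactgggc

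5 motifs were searched on both strands of all 32851 promoter windows. The OCT4-SOX2 composite element was searched as the string in capitals in the *Nanog* sequence above, with 1 position free. A match in *Nanog*, 75 to 62 bases before its start, was therefore fixed in advance. So long a string was found in 2 windows in all (0.00609%), both of them overlapping entries of *Nanog*. *Zfp42* held the octamer ATGCAAAT on the reverse strand, 186 to 179 bases before its start, and the CACCC box CCACACCC, bound by KLF factors, 75 to 68 bases before it, found in 1.6% and 3.2% of all windows. The element CAAGGTCA bound by NR5A2 and ESRRB (1.33% of windows) and the STAT element TTCCNGGAA (0.913%) were in none of the 11 windows of these genes. The GC content was 65.2% with 16 CpGs at *Tfcp2l1*, 58.4% with 9 at *Zfp42*, 57.2% with 11 at *Nr0b1*, 52.0% with 3 at *Nanog* and 44.8% with 1 at *Spic*, against medians of 52.4% and 6 over all windows. A match in these letters is a description and shows no binding.

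In control ESCs of the *Pcgf1* line the 10 genes spanned a wide range of levels. *Nanog*, a homeodomain factor at the centre of the circuit, was the highest at 680 to 849 TPM, above every library of the next gene, *Tfcp2l1* (343 to 658 TPM). The ranges of *Tfcp2l1* and *Esrrb* (301 to 628 TPM) overlapped, as did *Esrrb* and *Fbxo15* (235 to 382 TPM). *Zfp42* (168 to 211 TPM) lay below *Fbxo15*, and *Nr0b1* (122 to 165 TPM) below *Zfp42*, without overlap. *Tcl1* (68.2 to 109 TPM) and *Nr5a2* (47.7 to 102.2 TPM) overlapped each other. *Prdm14* (19.6 to 23.4 TPM) and *Spic* (14.4 to 23.8 TPM) were the lowest and could not be ordered.

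All 10 genes fell from control ESCs to control EBs, and for none of them did a control EB library reach the lowest control ESC library. With limma on log2(TPM + 0.1), the adjusted p (Benjamini-Hochberg over 20594 genes) was under 0.05 for 10 of 10, where 13.4% of all genes were called lower and 11.5% were lower without overlap. The median log2 fold change of the 10 was -2.94, against -0.0045 over all genes. *Tfcp2l1* ranked 35 among the lowest log2 fold changes of all genes tested. In bulk RNA, a smaller share of naive cells and less RNA per cell cannot be told apart.

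**Figure D1:**
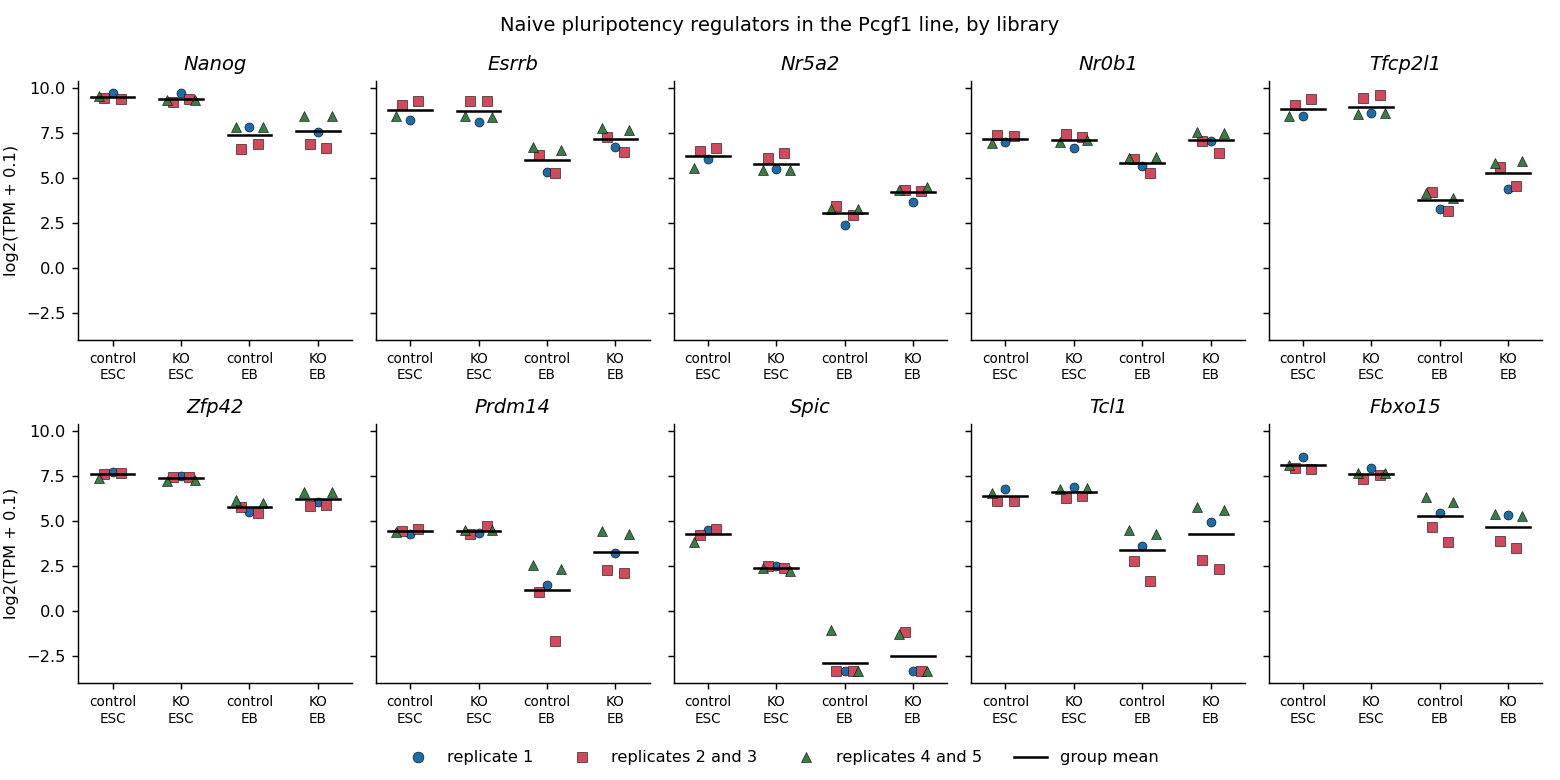
log2(TPM + 0.1) of each of the 10 genes in the 19 libraries of the Pcgf1 line. Each point is a library, its shape and colour give the library series, and the 4 groups stand side by side in each panel, with the mean as a line. Control EBs lie below control ESCs in all 10 panels, and Pcgf1-KO EBs overlap Pcgf1-KO ESCs only for Nr0b1 and Prdm14.

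*Nr0b1* encodes DAX1, an orphan nuclear receptor that binds OCT4 and NR5A2 and limits their activity. Its control ESCs were at 128, 164.5, 163 and 122 TPM (replicates 1 to 4) and its control EBs at 50.4, 65.2, 38.5, 68.1 and 70.8 TPM (replicates 1 to 5). *Pcgf1*-KO ESCs were at 101, 173, 155, 129.8 and 136 TPM, and *Pcgf1*-KO EBs at 135, 131, 82.7, 188 and 178 TPM. The *Pcgf1*-KO EBs thus lay above all control EBs. Of the 5, 2 were within the range of the ESC libraries, 2 above it and 1 below it. The fall of *Nr0b1* in controls was -1.32 ± 0.23 on the log2 scale (SE), with an adjusted p of 0.00035 (limma). In *Pcgf1*-KO the difference between EBs and ESCs was 0.01 ± 0.22, with a 95% interval of -0.45 to 0.46 (adjusted p = 1). Between the EBs, *Nr0b1* was 1.26 ± 0.22 higher in *Pcgf1*-KO (adjusted p = 0.0049), and higher in 5 of 5 same-numbered pairs.

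*Nr5a2* encodes LRH-1, a nuclear receptor that drives Oct4 and *Nanog* transcription. Its TPM was 66.6, 88.8, 102.2 and 47.7 in control ESCs and 45.3, 69.3, 82.0, 43.9 and 43.0 in *Pcgf1*-KO ESCs. In EBs it was 5.08, 11, 7.5, 9.56 and 9.51 in controls and 12.6, 19.9, 19.6, 20.4 and 22.1 in *Pcgf1*-KO. EBs were below ESCs in both states without overlap, and *Pcgf1*-KO EBs lay above all control EBs. The log2 fall of *Nr5a2* was -3.14 ± 0.27 in controls and -1.55 ± 0.25 in *Pcgf1*-KO. *Nr5a2* was 1.16 ± 0.25 higher in *Pcgf1*-KO than in control EBs (adjusted p = 0.0212 with limma, higher in 5 of 5 pairs).

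*Tfcp2l1*, a CP2-family factor downstream of LIF and STAT3, had the deepest fall of those above 0 in every EB library. Control ESCs were at 347, 540, 658 and 343 TPM, and control EBs at 9.48, 18.8, 8.93, 17.7 and 14.9 TPM. *Pcgf1*-KO ESCs were at 383, 688, 766, 380 and 384 TPM, and *Pcgf1*-KO EBs at 20.9, 49.5, 23.3, 57.4 and 60.5 TPM. Every EB library was below every ESC library in both states, while the EB groups did not overlap each other. The log2 fall was -5.08 ± 0.36 in controls and -3.68 ± 0.34 in *Pcgf1*-KO, and *Pcgf1*-KO EBs were 1.52 ± 0.34 above control EBs (adjusted p = 0.0237 with limma, 5 of 5 pairs).

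*Esrrb*, an orphan nuclear receptor released when GSK3 is inhibited, was at 301, 532, 628 and 341 TPM in control ESCs. It was at 39.4, 76.0, 38.3, 105 and 95.1 TPM in control EBs and 105, 156, 85.7, 221 and 203 TPM in *Pcgf1*-KO EBs, from 274, 611, 620, 349 and 340 TPM in *Pcgf1*-KO ESCs. The EB groups overlapped, although each *Pcgf1*-KO EB was above the control EB of its number (5 of 5 pairs). The difference between EBs was 1.16 ± 0.35 on the log2 scale, with an adjusted p of 0.105 (limma). The falls, -2.73 ± 0.37 in controls and -1.52 ± 0.35 in *Pcgf1*-KO, were both past the threshold.

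*Prdm14*, a PR-domain factor known to hold back FGF signalling and DNA methyltransferases, varied widely in EBs. Its control EBs were at 2.67, 2.01, 0.219, 5.87 and 4.99 TPM, and its *Pcgf1*-KO EBs at 9.23, 4.80, 4.22, 21.7 and 19.5 TPM. Replicates 4 and 5 of the *Pcgf1*-KO EBs reached the range of the ESCs, which was 19.6 to 23.4 TPM in controls and 19.4 to 26 TPM in *Pcgf1*-KO. *Prdm14* fell by 3.27 ± 0.65 on the log2 scale in controls. In *Pcgf1*-KO the value was -1.2 ± 0.61 (adjusted p = 0.206), lower in 5 of 5 pairs but not past the threshold. Between the EBs the difference was 2.11 ± 0.61 (adjusted p = 0.089, limma), higher in 5 of 5 pairs.

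*Nanog*, *Zfp42* and *Tcl1* fell in both states. *Nanog* went from 605 to 849 TPM over all ESC libraries to EB levels of 95.9 to 230 TPM in controls and 100.4 to 352 TPM in *Pcgf1*-KO, with log2 falls of -2.12 ± 0.35 and -1.81 ± 0.33. Its EB groups overlapped and *Pcgf1*-KO was the higher in 3 of 5 pairs (0.19 ± 0.33, interval -0.49 to 0.88). *Zfp42* encodes REX1, a zinc finger protein used as a reporter of the naive state. It fell by 1.82 ± 0.18 in controls and by 1.17 ± 0.17 in *Pcgf1*-KO, and its EBs were at 43.8 to 71.7 and 57.8 to 99.4 TPM. *Tcl1*, a co-activator of the AKT kinase, fell by 3.01 ± 0.65 and by 2.33 ± 0.61, with EBs at 3.11 to 23.1 and 4.93 to 56.0 TPM. *Pcgf1*-KO EBs were the higher in 5 of 5 pairs for both genes, at 0.44 ± 0.17 (adjusted p = 0.254) for *Zfp42* and 0.93 ± 0.61 (adjusted p = 0.665) for *Tcl1*, neither past the threshold.

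*Spic*, an ETS-family factor, was at 22.8, 18.5, 23.8 and 14.4 TPM in control ESCs and 5.57, 5.48, 5.20, 5.14 and 4.56 TPM in *Pcgf1*-KO ESCs, so the ESC groups did not overlap (2.56% of all genes were lower in this way). Among EBs it was listed at 0 in 4 of 5 control and 3 of 5 *Pcgf1*-KO libraries, and at most at 0.376 TPM in the rest. Its log2 falls of -7.16 and -4.88 depend on the pseudocount and are no measure of the fold. Between ESCs, the log2 difference of *Spic* was -1.89 ± 0.54, which missed the threshold (adjusted p = 0.149, limma). *Fbxo15*, an F-box protein gene activated by OCT4 and SOX2, was at 43.1, 25.2, 14.3, 82.2 and 65.7 TPM in control EBs, against 39.9, 14.6, 11.4, 41.7 and 38.7 TPM in *Pcgf1*-KO EBs. It was the lower in *Pcgf1*-KO in 5 of 5 pairs (-0.59 ± 0.42, adjusted p = 0.699), and its log2 falls of -2.86 ± 0.45 and -2.96 ± 0.42 were close, with a difference of -0.10 and an interval of -1.4 to 1.2.

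In *Pcgf1*-KO, 8 of the 10 genes were called lower in EBs than in ESCs, where 10.2% of all genes were, and *Nr0b1* and *Prdm14* were not. The same 8 did not overlap between these groups (8.56% of all genes). The level left in EBs, as a percent of the mean ESC level of the same state, describes how complete each fall was. For *Nr0b1* it was 40.5% ± 9.5 (SD, n = 5) in controls and 103% ± 30.4 (n = 5) in *Pcgf1*-KO. *Prdm14* kept 14.6% ± 10.6 and 53.6% ± 37.1, *Esrrb* 15.7% ± 6.9 and 35.1% ± 13.4, *Nr5a2* 11.2% ± 3.0 and 33.4% ± 6.5, and *Tfcp2l1* 2.96% ± 0.97 and 8.13% ± 3.64. For *Zfp42* it was 28.6% ± 6.3 and 45.7% ± 12.1, for *Tcl1* 15.1% ± 9.8 and 29.2% ± 23.2, and for *Nanog* 24.3% ± 8.9 and 32.3% ± 17.9. Of these 9 genes, *Fbxo15* alone had a lower mean in *Pcgf1*-KO, with 16.1% ± 9.8 in controls and 14.5% ± 7.4 in *Pcgf1*-KO.

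**Figure D2:**
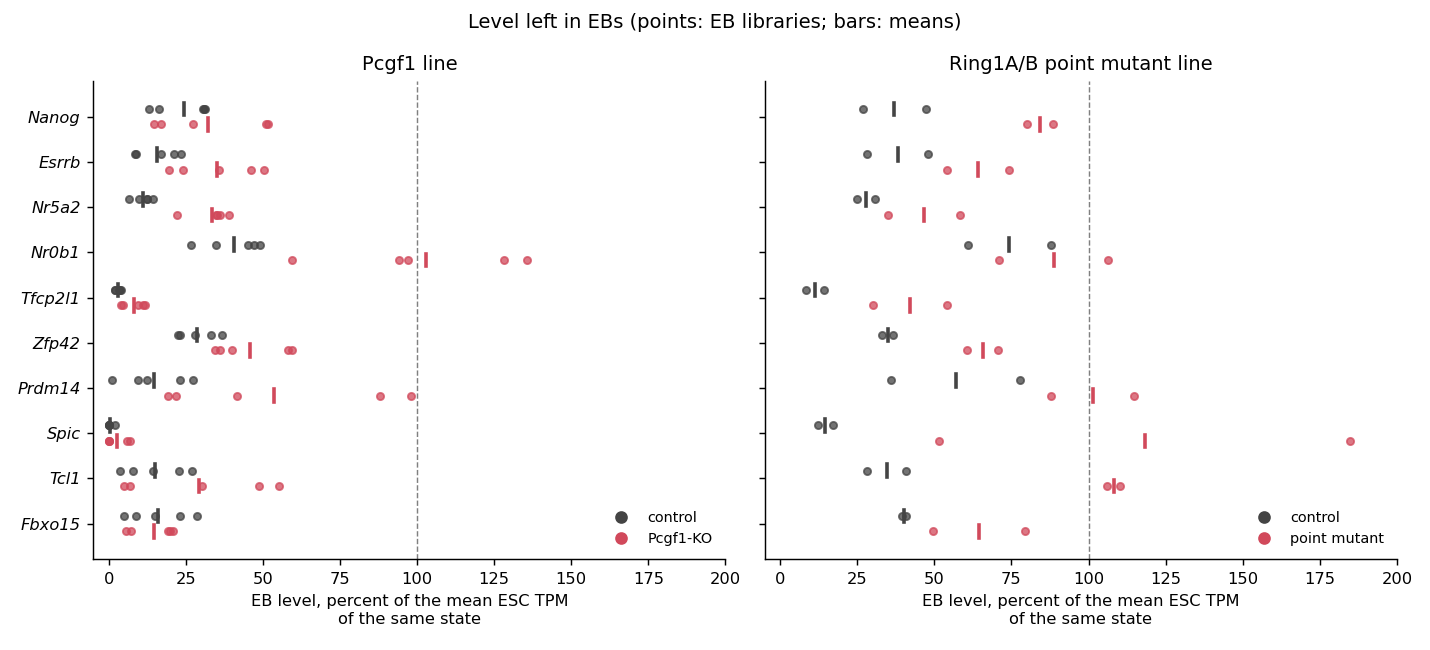
Level left in EBs as a percent of the mean TPM of the ESCs of the same line and state, for each of the 10 genes in the Pcgf1 line and the point mutant line. Points are EB libraries, short bars are means, and the dashed line marks 100%. The mean for Nr0b1 is 40.5% in control and 103% in Pcgf1-KO EBs, and that for Tcl1 is 34.6% in control EBs and 108% in EBs of the point mutant.

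Whether the falls themselves differed was tested as an interaction. In the comparison without pairing, none of the 10 differences of falls passed the threshold in limma, where 1 of 20594 genes was called at all (0.00486%, lower). An unadjusted p under 0.05 was found for 7 of the 10 (*Spic* among them). The share of all genes with an unadjusted p under 0.05 was not counted, in this or any later comparison. Leaving aside *Spic*, at 0 in most control EBs, 8 of the other 9 differences of falls were positive, that is, smaller falls in *Pcgf1*-KO, where the median over all genes was 0.0044. *Prdm14* had 2.07, *Nr5a2* 1.59, *Tfcp2l1* 1.4, *Nr0b1* 1.33 and *Esrrb* 1.21, and the adjusted p was 0.324 for *Nr5a2* and 0.354 for *Nr0b1*. Same-numbered libraries deviated together, and in a fit blocked on replicate number 2 genes passed, *Nr5a2* (1.60, adjusted p = 0.0144) and *Nr0b1* (1.39, adjusted p = 0.0242), among 333 genes called in all. By the library identifiers, replicate 1, replicates 2 and 3, and replicates 4 and 5 form 3 library series, and with the series as a term the same 2 genes passed (adjusted p = 0.00671 and 0.0215).

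Directly between EBs, 3 of the 10 genes were higher in *Pcgf1*-KO, *Tfcp2l1*, *Nr0b1* and *Nr5a2*, and none was called lower. Of all genes, 1.08% were called higher and 0.874% lower in this comparison, and 1.43% were higher without overlap, as these 3 were. Blocked on replicate number 5 passed, with *Esrrb* (adjusted p = 0.0224) and *Prdm14* (adjusted p = 0.0156) added, among 2143 genes called. *Nr0b1* kept its call when any single library was left out. *Nr5a2* lost its call without control EB replicate 1 or 3 or *Pcgf1*-KO EB replicate 4 or 5, and *Tfcp2l1* without any of these or *Pcgf1*-KO EB replicate 2, so 1 of the 10 was called in 4 of these cases. A fit of only the 2 EB groups called none of the 10 (adjusted p = 0.0542 for *Nr0b1*, 0.0668 for *Nr5a2* and 0.0994 for *Tfcp2l1* with limma). Between ESCs, 0 of the 10 differed with limma (0.32% of all genes called in each direction), 1 had an unadjusted p under 0.05 (*Spic*), and the median was -0.09. *Spic* was lower in *Pcgf1*-KO ESCs in 4 of 4 same-numbered pairs, and its call depends on the fit, with an adjusted p in limma of 0.149 as reported, 0.0626 blocked on replicate number, 0.0449 with the series term and 0.00733 in a fit of only the ESC groups; it was also called with a pseudocount of 1.

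**Figure D3:**
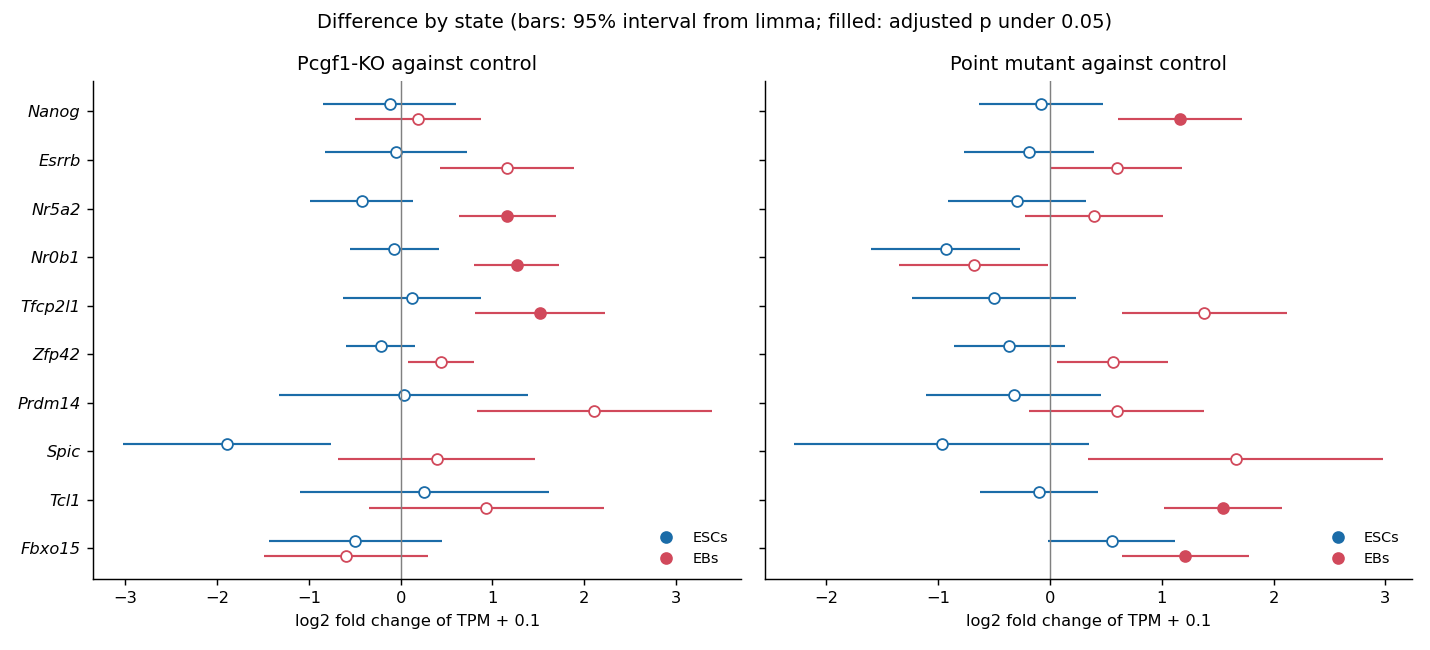
Log2 fold change of mutant against control, in ESCs and in EBs, for each of the 10 genes in the Pcgf1 line and the point mutant line. Points are estimates from limma, filled where the adjusted p was under 0.05, and bars are 95% intervals. In EBs Nr0b1 lies at 1.26 in the Pcgf1 line and at -0.68 in the point mutant line.

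In the point mutant line the estimated falls of the 10 genes from control ESCs to control EBs were smaller than in the *Pcgf1* line, a difference between lines that was not tested. In its control EBs 8 of the 10 were called lower than in control ESCs (2% of all genes), and *Nr0b1* (-0.43 ± 0.28, adjusted p = 0.446) and *Prdm14* (-0.91 ± 0.34, adjusted p = 0.186) were not. Lower without overlap were 9 of the 10 (22.7% of all genes). The called falls ran from -3.19 ± 0.32 for *Tfcp2l1* to -1.31 ± 0.24 for *Fbxo15*. This count rests on 2 libraries per group: leaving out any 1 of the 8 libraries left 0 to 4 genes called.

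In the point mutant itself, 0 of the 10 were called lower in EBs than in ESCs with limma, 5 had an unadjusted p under 0.05, and 0.0838% of all genes were called lower and 0.0493% higher. *Tfcp2l1* changed by -1.31 ± 0.32 and *Nr5a2* by -1.14 ± 0.26, without overlap between the groups of either, as for 20.4% of all genes. *Prdm14* (0.01 ± 0.34), *Spic* (-0.02 ± 0.57) and *Tcl1* (0.12 ± 0.22) showed estimates near 0 with overlapping groups.

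*Tcl1* had the largest called difference between the EBs of this line. It was at 107 and 155 TPM in control ESCs, 113 and 128 TPM in mutant ESCs, 37.0 and 53.6 TPM in control EBs and 133 and 128 TPM in mutant EBs, so only the control EBs stood apart. The difference between EBs was 1.55 ± 0.22 (adjusted p = 0.0162, limma). *Nanog* had 836 and 788 TPM in control ESCs, 810 and 724 TPM in mutant ESCs, 218 and 383 TPM in control EBs and 613 and 679 TPM in mutant EBs. Mutant EBs were 1.16 ± 0.24 above control EBs (adjusted p = 0.0414). *Fbxo15*, which had the lower mean in *Pcgf1*-KO EBs, was higher in EBs of the point mutant, with 289 and 265 TPM in control ESCs, 485 and 339 TPM in mutant ESCs, 113 and 109.9 TPM in control EBs and 327 and 204 TPM in mutant EBs. The *Fbxo15* difference passed the threshold in EBs (1.21 ± 0.24, adjusted p = 0.039) and not in ESCs (0.55 ± 0.24, adjusted p = 0.314), where its groups did not overlap either (32.5% of all genes were higher in this way). The 2 lines were fitted apart, and the difference between them was not tested.

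These 3 were the genes called higher in mutant EBs, where 3.76% of all genes were called higher, 0.764% lower, and 30.1% were higher without overlap. The median of all genes was itself 0.10 above 0 in this comparison, and under other scalings the values ran from 1.03 to 1.16 for *Nanog*, 1.42 to 1.55 for *Tcl1* and 1.08 to 1.21 for *Fbxo15*. With median-of-ratios scaling *Nanog* (adjusted p = 0.0546) and *Fbxo15* (adjusted p = 0.0908) lost their calls in limma. The calls rest on few libraries, since leaving out any 1 of the 8 left 0 or 1 gene called. *Tfcp2l1*, with 11.3 and 19.1 TPM in control EBs and 28.6 and 51.3 TPM in mutant EBs, was just outside the threshold (1.38 ± 0.32, adjusted p = 0.0548). *Spic* was at 0.72 and 1.03 TPM in control EBs and 1.54 and 5.53 TPM in mutant EBs, a wide spread (adjusted p = 0.15).

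*Nr0b1* had its lower values in the mutant of this line. It was at 115 and 83.8 TPM in control ESCs, 60.2 and 43.9 TPM in mutant ESCs, 87.2 and 60.5 TPM in control EBs and 55.4 and 37.0 TPM in mutant EBs. Mutant libraries were the lower at both stages without overlap (12.9% of all genes in ESCs and 13.6% in EBs), at -0.93 ± 0.28 in ESCs (adjusted p = 0.143) and -0.68 ± 0.28 in EBs (adjusted p = 0.231), neither past the threshold in limma. Of the ESC differences, 0 of 10 were called and 1 had an unadjusted p under 0.05, with 0.197% of all genes called lower and 2.34% higher. The differences of falls were positive for all 10 genes, with a median of 0.92, and 0 were called (5 with an unadjusted p under 0.05, and 0.00493% of all genes called in each direction). The shares of all genes with a positive difference, or with an unadjusted p under 0.05, were not counted. The difference for *Nr0b1* turned negative without mutant EB replicate 1 (-0.040) or control EB replicate 2 (-0.013). The largest differences were *Spic* (2.63, from low EB values), *Tfcp2l1* (1.88), *Tcl1* (1.65, adjusted p = 0.273) and *Nanog* (1.24).

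The level left in EBs of this line was 34.6% ± 9.0 (SD, n = 2) in controls and 108% ± 3.0 (n = 2) in the mutant for *Tcl1*, 37.0% ± 14.4 and 84.2% ± 6.0 for *Nanog* and 11.3% ± 4.1 and 42.0% ± 16.9 for *Tfcp2l1*. *Prdm14* kept 56.9% ± 29.6 and 101% ± 19, *Zfp42* 34.9% ± 2.5 and 65.7% ± 7.1, *Esrrb* 38.1% ± 14.1 and 64.2% ± 14.2, *Fbxo15* 40.2% ± 0.8 and 64.4% ± 21.2, and *Nr5a2* 27.9% ± 4.2 and 46.5% ± 16.4. *Nr0b1* kept 74.3% ± 19 and 88.7% ± 25, overlapping between the states. *Tfcp2l1* had the lowest of these shares in the controls of this line.

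Other genes of the pathway show where the 10 sit. Of 16 further naive genes, 9 fell and *Gbx2* rose from control ESCs to control EBs of the *Pcgf1* line, with a median log2 fold change of -1.99. The deepest were *Klf4* (-7.12) and *Tbx3* (-4.55), transcription factors of the circuit, *Socs3* (-4.96), a target of STAT3, and *Jam2* (-4.31), an adhesion molecule. Between EBs, 3 of the 16 were higher in *Pcgf1*-KO, *Gbx2* (1.67, adjusted p = 0.0154), *Tdh* (0.96, adjusted p = 0.0197) and *Jam2* (1.79, adjusted p = 0.0365), and none was lower. For the point mutant line, 8 of the 16 fell and 1 rose in controls, 2 fell and none rose in the mutant, and between EBs 5 were higher and 1 lower in the mutant, with *Tbx3* (2.05, adjusted p = 0.0099) and *Klf4* (1.19, adjusted p = 0.048) among the higher.

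The core factors behaved unlike the 10 genes. *Pou5f1*, which encodes Oct4, was at 1027 to 1753 TPM in the control ESCs of the *Pcgf1* line, and its control EBs spanned 1155 to 1723 TPM. Of 5 core genes none fell in these EBs and 3 rose (*Utf1* 2.10, *Lin28a* 1.43 and *Dppa4* 0.67), and between the EBs of the 2 states 0 were called. Of 10 formative genes, 8 rose in control EBs and also 8 in *Pcgf1*-KO EBs, led in controls by *Fgf5* (7.58), *Pou3f1* (6.12), *Dnmt3b* (5.34) and *Sox3* (4.55). Between EBs only *Zic2* was called, lower in *Pcgf1*-KO (-1.28, adjusted p = 0.0342). With the point mutant, 5 formative genes were lower in mutant than in control EBs, among them *Fgf5* (-3.36, adjusted p = 0.0197) and *Otx2* (-2.04, adjusted p = 0.0119), and 2 were higher, *Sox3* and *Etv4*. The core factors had 0 calls there in any of these comparisons.

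Markers of other cells moved with the stages and states, and their part in the results was not tested. The summed TPM of 8 feeder fibroblast genes was 191 to 276 in control ESCs, 146 to 219 in *Pcgf1*-KO ESCs, 24.0 to 45.5 in control EBs and from 7.37 to 13.8 in *Pcgf1*-KO EBs, where *Lum* was listed at 0 throughout and 1 of the 8, *Thy1*, was called lower. The same sum in the point mutant line was 35.6 to 40, 60.6 to 65.6, 28.7 to 31.9 and 65.7 to 69.5 in the same order, and 4 of the 8 genes were called higher in mutant EBs. The sum of 6 primitive endoderm genes was 2.78 to 4.96 TPM in control and 6.24 to 20 TPM in *Pcgf1*-KO EBs, with *Gata4*, *Gata6* and *Pdgfra* called higher, and 8.71 to 11.4 and 31.1 to 31.7 TPM in control and mutant EBs of the point mutant line (2 of 6 called higher). Of 5 trophoblast genes 0 and 2, and of 4 mesoderm genes 1 and 2, were called higher in mutant EBs of the *Pcgf1* and the point mutant line, and of 4 germ cell genes none was called in either. 4 genes of 2-cell-like cells, a rare state of ESC cultures, summed to at most 29.6 TPM in the *Pcgf1* line. Their sum in the point mutant line was 35.8 to 102.5 TPM in control ESCs, 347 to 942 TPM in mutant ESCs, 46.2 to 142 TPM in control EBs and from 620 to 1172 TPM in mutant EBs, with 2 of them called higher in mutant EBs and *Tcstv3* listed at 0 in all groups.

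Across the 19 libraries of the *Pcgf1* line the genes whose log2 TPM followed the mean of the 10 most closely, among 13400 genes with a mean of at least 1 TPM, included *Crtac1* (r = 0.99), *Klf4*, *Atp1b1*, *Glb1*, *Cadm4*, *Mob3c* and *Jam2* (r = 0.98). The mean TPM of each was lower in EBs than in ESCs in both states, and the libraries share a line and library series. Of the 10, *Zfp42* ranked 2 and *Nr0b1* ranked 1507 (r = 0.75), ranks raised by a mean that includes the gene itself. With the mean of the other 9 genes, r over the 19 libraries was 0.99 for *Zfp42* and 0.73 for *Nr0b1*. Within stages the values differed in sign. Over the 9 ESC libraries, r with the mean of the other 9 genes was 0.87 for *Nr5a2* and 0.81 for *Zfp42* but -0.82 for *Tcl1*, which was highest in the replicates where *Esrrb*, *Nr5a2* and *Tfcp2l1* were lowest. Over the 10 EB libraries it was 0.94 for *Zfp42*, 0.92 for *Prdm14* and 0.38 for *Fbxo15*.

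In the other 4 lines the 10 genes mostly did not follow the labelled stages. Taking both states of a line together, labelled EB libraries were separated from labelled ESC libraries for 1 of the 10 in the *Ring1A/B* line (*Fbxo15*, with 31.7% of all genes). They were separated for 0 of 10 in the *Pcgf6* (15%), *Pcgf2/4* (1.99%) and *Pcgf3/5* lines (1.84%). By the stage in the names of the deposited files, the libraries named EB lay below all libraries named ESC for 8 of the 10 in the *Ring1A/B* line (8.39% of all genes), 9 in the *Pcgf2/4* line (14.1%), 9 in the *Pcgf3/5* line (21.1%) and 7 in the *Pcgf6* line (13.8%). *Nr0b1* was separated downwards in none of the 4. Among libraries named control, its EBs lay below its ESCs in the *Ring1A/B* line only. They lay above in the *Pcgf2/4* line and in the *Pcgf3/5* line (88.8 to 98.1 against 70.6 to 73.3 TPM). In the *Pcgf6* line the 2 ranges overlapped. Conditions by name are given as ranges only, with no test.

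By label, 0 of the 10 were called in any of the 3 comparisons with limma in the lines for *Pcgf6*, *Pcgf2/4* and *Pcgf3/5*. None had an unadjusted p under 0.05 in the *Pcgf2/4* and *Pcgf6* lines, and 5 had one for control EBs against control ESCs in the *Pcgf3/5* line, where 9 of the 10 were lower in labelled control EBs without overlap (29.1% of all genes). Over all genes, 0.02% were called lower and 0.0401% higher in that comparison, and 0% in the other 8 of these 3 lines. In the *Ring1A/B* line, 6 of the 10 were called lower and 2 higher (*Nanog* and *Fbxo15*) in labelled control EBs against labelled control ESCs, where 14.6% and 28.6% of all genes were. All 10 were called higher in labelled KO EBs than in labelled KO ESCs (36.6% of all genes, with 19.9% lower), and their differences of falls were all called higher (18.9%, with 15.8% lower). In this line the libraries labelled control EB are named KO ESC, and those labelled KO ESC are named control EB.

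**Figure D4:**
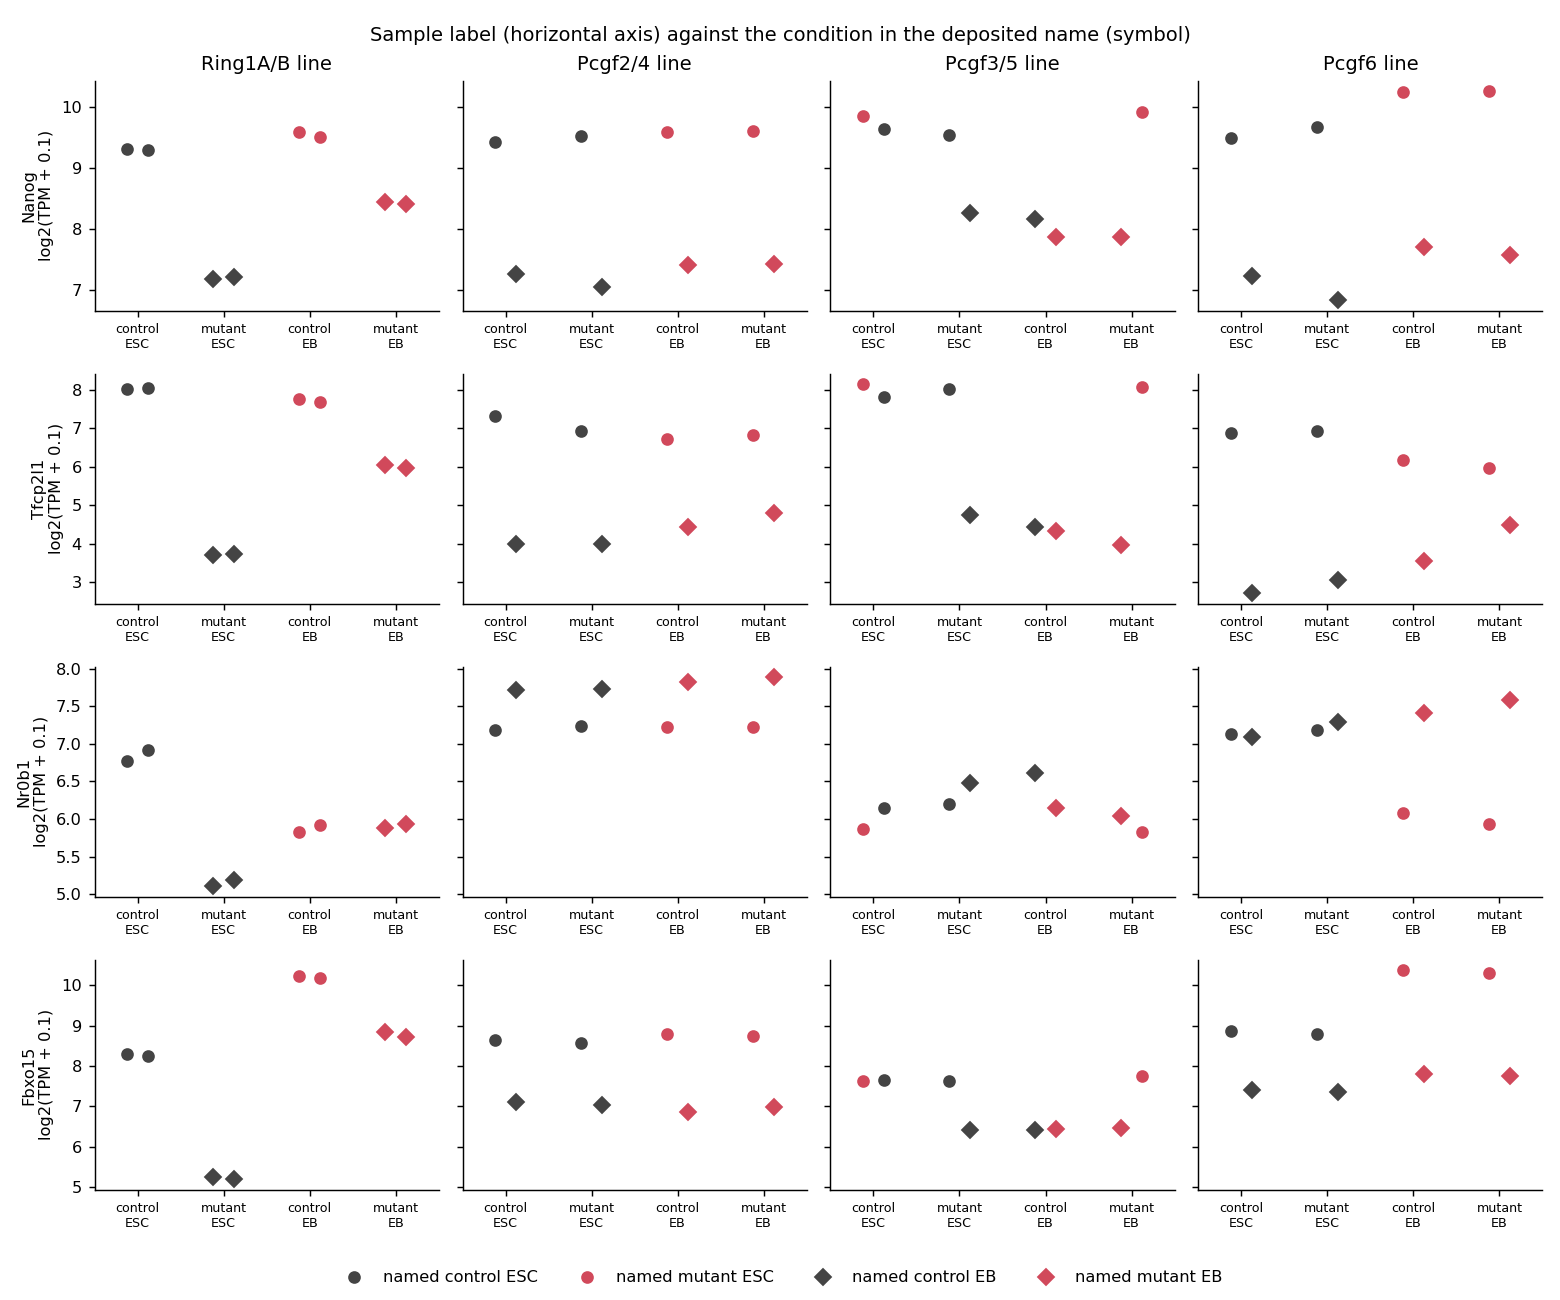
log2(TPM + 0.1) of Nanog, Tfcp2l1, Nr0b1 and Fbxo15 in the lines for Ring1A/B, Pcgf6, Pcgf2/4 and Pcgf3/5. Each point is a library placed at its labelled group on the horizontal axis, with circles for libraries named ESC and diamonds for those named EB, and grey for control and red for mutant (KO) in the name. Circles lie above diamonds in all 4 lines for Nanog and Tfcp2l1.

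Read by name, with 2 libraries per condition, the *Ring1A/B* line had *Nanog* at 630 to 636 TPM in control ESCs, 145 to 149 in control EBs, 731 to 770 in KO ESCs and 340 to 351 in KO EBs. *Zfp42* was at 432 to 435, 69.3 to 69.5, 383 to 391 and 333 to 345 TPM in the same order, and *Nr5a2* at 44.3 to 46.2, 2.42 to 2.7, 33.0 to 33.5 and 17.6 to 17.9 TPM. Libraries named KO EB thus lay between those named control EB and those named ESC for these genes. *Nr0b1* was at 109 to 120.4, 34.3 to 36.4, 56.6 to 60.4 and 58.9 to 61.2 TPM, with the libraries named KO ESC and KO EB overlapping. *Fbxo15* stood apart at 304 to 313, 36.3 to 37.7, 1154 to 1200 and 424 to 455 TPM, highest in the libraries named KO ESC. *Esrrb* at 344 to 354, 55.8 to 55.9, 299 to 306 and 213 to 217 TPM, and *Tfcp2l1* at 262 to 265, 12.9 to 13.3, 205 to 216 and 62.1 to 65.6 TPM, followed the order of *Zfp42*. *Prdm14* was at 22.6 to 23.6, 2.61 to 3.14, 20.2 to 21.4 and 10.8 to 13.2 TPM, and *Tcl1* at 119.6 to 123, 9.36 to 10.1, 89.5 to 95.7 and 58.6 to 61.2 TPM. *Spic*, at 27.8 to 29 TPM in libraries named control ESC, was listed at 0 in 1 library named control EB and at 0.357 TPM in the other, against 14.2 to 14.9 in KO ESC and 4.16 to 5.41 in KO EB.

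The *Pcgf6* line by name held the other high *Fbxo15* values. It was at 446 to 465 TPM in libraries named control ESC, 164 to 168 in control EB, 1269 to 1321 in KO ESC and 213 to 223 in KO EB. *Nanog* was at 722 to 821, 114 to 149, 1215 to 1225 and 190 to 209 TPM. *Nr0b1* was lower in the libraries named KO ESC (61.0 to 67.5 TPM) than in those named control ESC (140.6 to 145 TPM), control EB (136 to 157 TPM) or KO EB (171 to 191 TPM). For *Tcl1* the libraries named KO ESC (81.9 to 90.5 TPM) and KO EB (81.4 to 91.3 TPM) overlapped, while those named control ESC (147 to 167 TPM) and control EB (47.3 to 51.3 TPM) did not. *Nr5a2* overlapped likewise, at 9.7 to 12.9 TPM in KO ESC and 9.49 to 17.4 TPM in KO EB, with 15 to 16.1 TPM in control ESC and 1.79 to 2.75 TPM in control EB. *Esrrb* was at 233 to 254, 60.1 to 69.4, 174 to 194 and 129 to 159 TPM and *Zfp42* at 499 to 505, 212 to 247, 437 to 457 and 346 to 403 TPM in control ESC, control EB, KO ESC and KO EB by name. *Tfcp2l1* (11.7 to 22.5 TPM) and *Prdm14* (7.05 to 7.21 TPM) were low in KO EB by name, against 62.1 to 72.4 and 29.8 to 32.9 TPM in KO ESC.

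In the *Pcgf2/4* line *Nr0b1* was higher in libraries named EB, at 211 to 212 (control) and 227 to 236 TPM (KO), than in those named ESC, at 145 to 150.4 and 149 to 149.7 TPM. *Tfcp2l1* was at 122 to 160.0 TPM in libraries named control ESC, 15.8 in both named control EB, 105 to 115 in KO ESC and 21.4 to 27.6 in KO EB of that line. By name, KO EB there also exceeded control EB for *Nanog* (170 to 171 and 133 to 153 TPM). The same held for *Esrrb* (128 to 143 and 99.8 to 105) and *Nr5a2* (7.74 to 9.51 and 4.37 to 4.52). It held for *Zfp42* too (73.1 to 73.7 and 66.1 to 69.9). The reverse held for *Tcl1* (33.9 to 35.0 and 39.2 to 44.1) and *Fbxo15* (117 to 127 and 131 to 138). *Spic* (at most 1.15 TPM) was also lower in KO EB, and *Prdm14* overlapped (4.52 to 5.61 and 4.42 to 5.20). In the *Pcgf3/5* line *Tfcp2l1* was at 227 to 262, 21.4 to 26.8, 272 to 283 and 15.5 to 20.1 TPM, so that libraries named KO EB lay below those named control EB. The same order held there for *Nanog* (234 to 235 TPM in KO EB and 288 to 307 in control EB), *Esrrb* (78.1 to 89.7 and 127 to 134), *Nr5a2* (5.25 to 6.14 and 10.5 in both), *Zfp42* (206 to 208 and 358 to 374), *Prdm14* (5.83 to 7.4 and 12 to 13.3), *Tcl1* (18.9 to 22.6 and 39.7 to 43.8) and *Nr0b1* (65.6 to 70.5 and 88.8 to 98.1), and not for *Fbxo15* (85.7 to 88.7 and 84.5 to 84.7).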

How the data were processed

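Poly(A) RNA of 59 libraries was sequenced with single-end reads. Per the labels and the study's methods, reads were mapped to mm9 with STAR 2.5.2b and counted on exons, and the authors deposited TPM values for each library, of which the counts-to-TPM step is not given in the sources used here. Each library summed to 1e+06 TPM. Genes were matched by symbol, and Tfcp2l1 also by its older symbol for its position. Sample labels gave the groups. One Pcgf1-KO EB library is replicate 4 in its title and 5 in its characteristics, and names in deposited files were used for ranges only.

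For each line limma 3.58.1 (R 4.3.3) was fitted to log2(TPM + 0.1) over its 4 groups, with a trended prior and moderated two-sided tests, for genes above 0 in at least 1 library, with Benjamini-Hochberg adjustment over all of them and a threshold of 0.05. Fold changes are on this log2(TPM + 0.1) scale and understate those of low genes. The level left in EBs is a description. No counts were recovered, so precision rests on the replicates. The 10 genes and the lists were chosen with earlier results of these data known. Named list genes were the 4 of each list with the largest change from control ESCs to control EBs of the Pcgf1 line, and those named beside small counts, chosen after their values were seen. The genes nearest in pattern were the 8 with the highest correlation, of which 1 is not reported here. The lists were further naive genes, core factors, formative genes, feeder fibroblasts, primitive endoderm, trophoblast, mesoderm, germ cells and 2-cell-like cells.

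Replicate numbers came from the labels. In the Pcgf1 line same-numbered libraries of different groups deviated together (27 pairs of libraries, correlation of deviations 0.317 to 0.653, each over 0.1, across 13400 genes). In 17 of the 27 the correlation was highest with the library of the same number. The numbers also follow the library series, and the 2 cannot be fully told apart. Values with the number as a block are given where a call changed. The alternatives were another pseudocount, a filter on low values, 2 other normalizations, the block, the library series, fits of the compared groups alone and leaving out each library.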

Additional observations from a re-analysis of the deposited data

Results flagged for a closer look

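Of 40 sets of values tested for a single distant library (each of the 10 genes in each group of 4 or 5 libraries of the Pcgf1 line), 3 had one, and chance gives about 1 in 20. Nanog in Pcgf1-KO ESC replicate 1 was at 836 TPM against 605 to 660 TPM in the other 4. Nr5a2 in Pcgf1-KO EB replicate 1 was at 12.6 TPM against 19.6 to 22.1 TPM. Spic in control EB replicate 4 was at 0.376 TPM, where the other 4 control EBs were listed at 0. Beside 4 values of 0, any value above 0 would have been flagged, so this case says nothing about distance.

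In the Ring1A/B line by label, the change from ESCs to EBs differed between the labelled states for all 10 genes in the interaction test of limma (18.9% of all genes were higher). The difference, labelled KO minus labelled control on the log2 scale, was 5.47 for Spic, 3.19 for Nr5a2, 3.00 for Tcl1, 2.60 for Tfcp2l1, 2.45 for Zfp42, 2.18 for Prdm14, 2.15 for Esrrb, 1.73 for Nr0b1, 1.63 for Fbxo15 and 0.99 for Nanog. The libraries labelled KO ESC and control EB are named control EB and KO ESC in this line, and the part of this disagreement in the values was not tested.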

How the results depend on the processing

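The fall of all 10 genes from control ESCs to control EBs of the Pcgf1 line was called under every alternative run, including each of 19 libraries left out. In the difference of falls of that line, where 0 were called, 1 was called with a pseudocount of 1 (Spic), 1 with quantile normalization (Nr5a2), 2 with the replicate block and 2 with the library series as a term. Between its ESCs, where 0 were called, Spic alone was called with a pseudocount of 1, with the series term and in a fit of only the groups compared (1 each). Between its EBs, where 3 were called, 5 were with the block, 5 with the series term, 0 in a fit of only the groups compared, and 1 to 4 without single libraries (4 without control EB replicate 4, with Prdm14 added). In KO EBs against KO ESCs, leaving out control EB replicate 3 added Prdm14.

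In the point mutant line, leaving out single libraries gave 0 to 4 called in control EBs against ESCs (8 with all libraries) and 0 to 1 between EBs (3 with all). Between EBs 6 were called with the replicate block, of which 5 higher and Nr0b1 lower, and 1 in a fit of only the groups compared (Tcl1). Between ESCs the block called 1, Nr0b1. With median-of-ratios scaling, Nanog (adjusted p = 0.0546) and Fbxo15 (adjusted p = 0.0908) lost and Tfcp2l1 (adjusted p = 0.0483) gained a call between EBs. Same-numbered libraries of this line deviated together (r 0.106 to 0.381), but each comparison holds 2 pairs. In the Pcgf3/5 line by label, control EBs against ESCs had 8 called in a fit of only the groups compared. That fit called 4801 of 19270 genes in all, against 12 of 19963 in the fit of all groups. A fit of libraries whose stage is the same in label and name was chosen after seeing the data. It left single libraries in the KO groups, so its calls are not given. Crossing the replicate numbers there, also added after seeing the data, called 0 members in any comparison.

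With the replicate block, genes called over the whole table rose in the Pcgf1 line from 5138 to 9050 (control EBs against ESCs), 3770 to 7573 (KO EBs against ESCs), 1 to 333 (difference of falls), 132 to 1094 (between ESCs) and 402 to 2143 (between EBs). In the line with the point mutant, they rose from 960 to 2018, 27 to 102, 2 to 4, 515 to 1326 and 918 to 2056 in the same order.

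Estimates that changed sign were all uncalled. With the block and the series term, Fbxo15 in the difference of falls of the Pcgf1 line was 0.017 and 0.012, and Prdm14 between its ESCs -0.15 and -0.13. Spic in mutant EBs against ESCs of the point mutant line was 0.031 with a pseudocount of 1 and 0.0049 with median-of-ratios scaling. Without single libraries of the Pcgf1 line, Nr0b1 in KO EBs against KO ESCs ran from -0.11 to 0.19, Fbxo15 in the difference of falls from -0.46 to 0.19, Nanog between EBs from -0.025 to 0.43, and between ESCs Esrrb from -0.22 to 0.13, Nr0b1 from -0.15 to 0.042, Tfcp2l1 from -0.034 to 0.30 and Prdm14 from -0.024 to 0.081. In the other line, mutant EBs against ESCs ran from -0.47 to 0.11 for Nr0b1, -0.18 to 0.20 for Prdm14 and -0.91 to 0.87 for Spic, the difference of falls of Nr0b1 from -0.040 to 0.54, and Tcl1 between ESCs from -0.36 to 0.17. Where an alternative does not show the cause by its construction, the cause was not tested. Among the levels left in EBs, 1 moved by more than the spread of its libraries, that of Nr5a2 in Pcgf1-KO (41.8% with the median of the ESC libraries). Depth is unknown, and values near 0, such as Spic in EBs, carry an error that TPM does not show.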
